A study of Mus musculus with 9 samples.

Results

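Cytokine receptor genes were examined in bulk RNA-seq of hematopoietic stem cells (HSCs) sorted from mouse bone marrow. The set held 37 genes picked by name, out of 56748 genes with counts, and each was found as 1 row. They encode subunits of the receptors for interleukins, interferons, colony-stimulating factors, leptin, leukemia inhibitory factor, erythropoietin and tumor necrosis factor. The receptor genes Kit and Flt3 were not members.

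The study sorted SLAM HSCs (lineage-negative, Sca1+, c-Kit+, CD48-, CD150+) from female C57BL/6 mice and compared 3 groups of 3 libraries each. Young HSCs (yHSCs) came from mice of 6 to 10 weeks, and pre-aged HSCs (paHSCs) came from mice of 14 to 16 months and were split by surface P-selectin into a Selp_low and a Selp_high fraction. The labels name no transgene, deletion or treatment in any group. The replicates were called biological by the study, but how many mice were pooled into each library is not given in the sources used here, so the p-values below measure the spread between these libraries.

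Cytokine receptors carry no enzyme of their own in most cases. Binding of the ligand brings a private chain and a shared chain together, and the Janus kinases attached to them phosphorylate STAT proteins; receptors of the interleukin-1 family use the adaptor MyD88 instead, and those of the tumor necrosis factor family use TRADD and TRAF proteins. In bone marrow these receptors let HSCs and their progeny respond to infection, bleeding and inflammation, and many of the same chains are abundant on neutrophils, monocytes and lymphocytes.

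Promoter windows are shown for members on which the comparisons below turn. Il1r1 and Il12rb2 are the members that DESeq2 called lower in both paHSC fractions than in yHSCs, and Il6st, the shared gp130 chain, was higher in every Selp_high than in every Selp_low library. RefSeq windows of 300 bases (250 before and 50 from the start, build GRCm38.p6, read 5′ to 3′ on the strand of the gene) existed for 29 of the 37 members, in 37 windows. Capitals mark matches, on either strand, to the motif of STAT factors, searched as TTCNNNGAA, of GATA factors, searched as AGATAA, of RUNX factors, searched as TGTGGT, of ETS factors, searched as CCGGAA, or of AP-1, searched as TGANTCA, and no match overlapped another in the windows printed here.
Il1r1, chr1:40224830-40225129, plus strand: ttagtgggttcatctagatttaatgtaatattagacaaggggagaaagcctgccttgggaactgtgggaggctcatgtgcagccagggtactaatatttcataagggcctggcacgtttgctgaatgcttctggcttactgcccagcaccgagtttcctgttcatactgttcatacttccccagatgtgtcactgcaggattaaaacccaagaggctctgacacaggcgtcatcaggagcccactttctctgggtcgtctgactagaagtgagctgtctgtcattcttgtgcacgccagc
Il1r1, chr1:40266336-40266635, plus strand: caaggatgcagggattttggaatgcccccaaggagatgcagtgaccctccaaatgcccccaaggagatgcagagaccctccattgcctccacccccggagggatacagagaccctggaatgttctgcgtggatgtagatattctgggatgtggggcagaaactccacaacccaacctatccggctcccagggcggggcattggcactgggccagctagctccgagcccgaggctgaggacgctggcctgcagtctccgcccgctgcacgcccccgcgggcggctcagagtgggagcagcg
Il12rb2, chr6:67376139-67376438, minus strand: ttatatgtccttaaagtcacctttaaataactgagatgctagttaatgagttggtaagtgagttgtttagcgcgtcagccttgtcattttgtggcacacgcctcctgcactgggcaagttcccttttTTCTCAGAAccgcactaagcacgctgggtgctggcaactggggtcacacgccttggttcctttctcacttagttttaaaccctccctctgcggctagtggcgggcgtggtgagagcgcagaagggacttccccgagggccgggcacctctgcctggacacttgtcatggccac
Il6st, chr13:112463820-112464119, plus strand: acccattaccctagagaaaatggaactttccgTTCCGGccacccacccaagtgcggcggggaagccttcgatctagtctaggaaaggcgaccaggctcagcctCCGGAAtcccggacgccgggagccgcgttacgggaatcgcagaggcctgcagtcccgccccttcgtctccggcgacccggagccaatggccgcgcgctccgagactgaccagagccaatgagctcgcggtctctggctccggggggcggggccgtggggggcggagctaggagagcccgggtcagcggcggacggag

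The Il12rb2 window held 1 STAT match, 123 bases before the start, and the Il6st window held 2 ETS matches, 218 and 147 bases before it. Neither Il1r1 window held any of the 5 motifs. Over the member windows, the STAT motif was present in 18.9%, against 8.30% of all 32851 windows in the table. The corresponding shares were 13.5% and 11.2% for GATA, 18.9% and 16.8% for RUNX, 16.2% and 14.9% for ETS, and 5.41% and 7.81% for AP-1. These matches are letters in a window and no evidence of binding.

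The libraries were sequenced to between 24866975 and 35375310 counts, of which the 37 members took between 0.117% and 0.295%. Levels are given as CPM, the usual counts-per-library-size unit of RNA-seq, with library sizes adjusted by edgeR's TMM factors. In a library with 0 counts of a gene, its CPM could still reach 0.0695 to 0.198, a bound for counting error only. The HSC markers Slamf1, Kit and Ly6a were detected in every library, but their levels differed between the groups. Kit stood at 104 to 179 CPM in Selp_low, 220 to 425 CPM in Selp_high paHSCs and 196 to 649 CPM in yHSCs, and Slamf1 at 41.0 to 66.4, 78.5 to 198 and 10.9 to 19.3 CPM. Some libraries also carried markers of other cells. The summed level of 10 B cell markers was 21510 CPM in Selp_low replicate 1 and 456813 CPM in Selp_low replicate 2, against 647 to 20914 CPM in the other 7 libraries. The summed level of 10 neutrophil markers reached 213183 CPM in Selp_low replicate 3 and 64968 CPM in yHSC replicate 1, against 547 to 42621 CPM in the others. Cd48, which the sort was meant to exclude, stood at 174 and 309 CPM in Selp_low replicates 1 and 2 and at 11.6 to 38.6 CPM elsewhere. In bulk libraries, fewer cells of a type and less RNA per cell cannot be told apart.

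All 37 members passed the filter on low counts in each comparison, and 36 had at least 1 count in every library; the exception was Il2ra, with 0 counts in Selp_high replicate 1. Per length, 16 members had a mean level above 10 FPKM (CPM per kilobase of the deposited gene length), 16 lay between 1 and 10 FPKM, and 5 were below 1 FPKM. The 5 highest made up 51.5% of the summed FPKM of the set. In order they were Il2rg, Ifngr1, Csf3r, Csf2ra and Tnfrsf1a, with means of 86.5, 72.1, 44.2, 39.1 and 37.3 FPKM over the 9 libraries. The lowest were Lifr, the receptor chain for leukemia inhibitory factor (0.207 FPKM), and Lepr, the leptin receptor (0.471 FPKM), followed by Il2ra, Il18r1 and Il1rl1. Within Selp_low paHSCs the means were 131 ± 96.9 FPKM (SD, n = 3) for Il2rg, 85.3 ± 21.9 FPKM for Ifngr1, 29.0 ± 37.9 FPKM for Csf3r, 37.2 ± 46.3 FPKM for Csf2ra and 25.1 ± 24.4 FPKM for Tnfrsf1a, so the ranges of 1 SD of neighbours in this order overlapped. The order differed between the groups. Ifngr1 was first in yHSCs (73.8 ± 10.2 FPKM, against 69.0 ± 10.6 for Il2rg), Il21r was the third in Selp_low paHSCs (48.0 ± 30.1 FPKM), and Il11ra1 (39.9 ± 25.05 FPKM) stood above Csf2ra (37.8 ± 19.5 FPKM) in Selp_high paHSCs. Of the 36 members with counts in every library, 13 differed by more than 10 times between the highest and the lowest library.

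**Figure D1:**
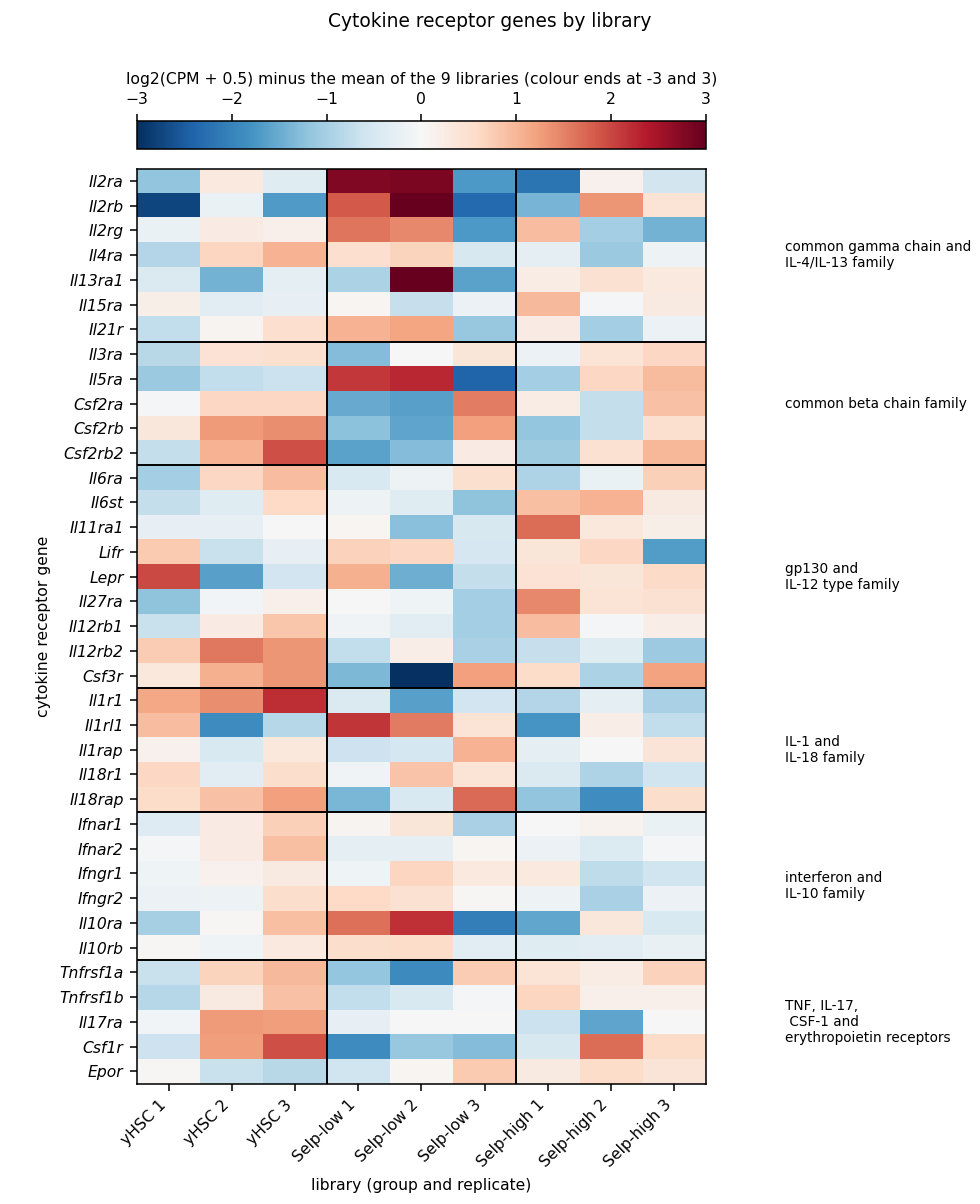
Level of each of the 37 cytokine receptor genes (rows, by receptor family) in the 9 libraries (columns, by group and replicate), as log2(CPM + 0.5) minus the mean of the gene over the libraries. Il1r1 is high in the 3 yHSC libraries, while Il2ra, Il2rb, Il5ra and Il10ra are high in Selp_low replicates 1 and 2 and low in replicate 3.

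The first comparison asked how Selp_high differed from Selp_low paHSCs of the same age. By edgeR's quasi-likelihood test with Benjamini-Hochberg adjustment over all genes, 0 of the 37 members were called (adjusted p of 0.05 or less and a log2 fold change of at least 1 in size), beside 0% of the 20370 genes tested. DESeq2, the tool of the study, called 1 member, Csf1r, beside 2.33% of the same genes. At an unadjusted edgeR p under 0.05 there were 8 members (21.6%), beside 12.5% of all genes. Every Selp_high library lay above every Selp_low library for 6 members (16.2%), beside 10.3% of all genes, and below for 3 members (8.11%), beside 10.7%. The median log2 fold change of the members was -0.13, close to the -0.11 of all genes.

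The gp130 and IL-12 type family, which includes the chains that receive IL-6 type cytokines, held most of the members that were higher in Selp_high paHSCs without overlap. Of 9 members of the gp130 and IL-12 type family, 7 had an estimate above 0 and 4 did not overlap, all 4 higher (Il6st, Il11ra1, Il27ra and Il12rb1). In the same comparison 9 of 10 HSC markers had an estimate above 0, 8 of them without overlap, with a median of 1.51, and so did 9 of 9 tested markers of megakaryocytes and platelets, 6 of them without overlap, with a median of 1.99. Whether these have a part in the receptor differences was not tested. Il6st, the signalling chain gp130, stood at 41.4, 45.1 and 26.3 CPM in Selp_high and at 19.5, 16.9 and 9.10 CPM in Selp_low replicates 1 to 3. All 3 Selp_high libraries were higher, with a log2 fold change of 1.30 ± 0.39 (SE), which edgeR did not call (adjusted p = 0.338; DESeq2 adjusted p = 0.180). yHSCs, at 13.1, 16.8 and 33.4 CPM, overlapped both fractions.

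Il11ra1, the private chain of the IL-11 receptor, stood at 308, 119 and 109 CPM in Selp_high and at 99.9, 39.5 and 67.9 CPM in Selp_low paHSCs. The groups did not overlap, and Selp_high replicate 1 stood far above the others (log2 fold change 1.36 ± 0.52, edgeR adjusted p = 0.374). The 3 yHSC libraries held 80.6, 80.2 and 96.2 CPM, so that Selp_high paHSCs were above them as well (1.04 ± 0.43, edgeR adjusted p = 0.638). The annotated span of Il11ra1 contains other genes, among them Dctn3 and Galt, and the strand setting of the counting is not given in the sources used here.

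Il27ra, which pairs with gp130 to receive IL-27, stood at 191, 93.8 and 96.9 CPM in Selp_high, 70.3, 64.0 and 34.5 CPM in Selp_low paHSCs and 30.3, 67.0 and 78.0 CPM in yHSCs. Selp_high libraries were the highest of all 9. The log2 fold change was 1.16 ± 0.41 over Selp_low paHSCs (edgeR adjusted p = 0.350) and 1.11 ± 0.43 over yHSCs (edgeR adjusted p = 0.589).

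Csf1r, the receptor of the macrophage growth factor CSF-1, was the member DESeq2 called. It stood at 7.80, 36.9 and 16.6 CPM in Selp_high, 2.66, 4.81 and 4.23 CPM in Selp_low paHSCs and 7.12, 27.2 and 43.8 CPM in yHSCs. The Selp_low libraries were the 3 lowest of all. The log2 fold change of Selp_high over Selp_low was 2.39 ± 0.62, with an edgeR adjusted p of 0.338 and a DESeq2 adjusted p of 0.0196. DESeq2 kept the call in 2 of 6 fits that left out 1 library. The call was lost without Selp_low replicate 1 or 2 or Selp_high replicate 2 or 3. Csf1r overlaps Hmgxb3 on the opposite strand by 873 bases, and the strand setting of the counting is not given. Hmgxb3 held 21.0, 30.8 and 32.0 CPM in Selp_high, 16.1, 23.0 and 21.4 CPM in Selp_low paHSCs and 22.3, 36.4 and 47.0 CPM in yHSCs. Whether its reads have a part in the Csf1r level was not tested. Of 12 markers of monocytes and macrophages, 9 had an estimate above 0 in the same comparison (median 0.94), 1 of them without overlap. Their sum was 27892 CPM in Selp_low replicate 3 and 769 to 10923 CPM elsewhere, but Lyz2, which neutrophils also express, made up 25570 CPM of the former. The macrophage genes C1qa, C1qb, C1qc and Adgre1 were highest in Selp_high replicate 2 (52.1, 108, 98.9 and 40.2 CPM), the library in which Csf1r was the highest of the Selp_high fraction. These genes are only a part of the 12. The sum of the 12 was 2541, 1673 and 7704 CPM in Selp_high replicates 1 to 3, lowest in replicate 2. In yHSC replicates 1 to 3 the sum was 10923, 2404 and 3856 CPM, highest in replicate 1, which held the least Csf1r of that group. In Selp_low paHSCs over yHSCs, 5 of the 12 were lower without overlap. The part of such cells in the Csf1r level was not tested.

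In the IL-1 and IL-18 family, 4 of 5 members had an estimate below 0, with a median of -1.06, and 2 were lower without overlap. Il1rl1, the receptor of the alarmin IL-33, stood at 0.903, 4.98 and 2.35 CPM in Selp_high and at 20.7, 13.6 and 5.81 CPM in Selp_low paHSCs, with a log2 fold change of -2.29 ± 0.75 (edgeR adjusted p = 0.338; DESeq2 adjusted p = 0.0600). In yHSCs it held 8.57, 0.787 and 2.13 CPM. The summed markers of type 2 innate lymphoid cells, which carry this receptor, were 224, 149 and 33.0 CPM in Selp_low replicates 1 to 3, in the order of Il1rl1, and 48.8 to 105 CPM in Selp_high paHSCs. The order did not hold in the other groups. Selp_high replicate 1 had the most markers of its group (105 CPM) and the least Il1rl1. Among yHSCs, replicate 1 had the fewest markers (64.6 CPM) and the most Il1rl1. Of 5 markers tested, 4 had an estimate below 0 in Selp_high over Selp_low paHSCs (median -2.60), and DESeq2 called Icos. Their part in the Il1rl1 level was not tested. Il18r1, the ligand-binding IL-18 receptor chain, stood at 2.48, 1.60 and 2.18 CPM in Selp_high and at 3.25, 6.79 and 4.83 CPM in Selp_low paHSCs (log2 fold change -1.25 ± 0.49, edgeR adjusted p = 0.378). At 5.66, 2.66 and 5.33 CPM, all yHSC libraries were also above the Selp_high libraries (-1.15 ± 0.53, edgeR adjusted p = 0.712). Both genes sit beside Il1r1 and Il18rap in a cluster of 4 members on chromosome 1 (mm39 1:40264240-40590865).

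Equal replicate numbers of Selp_high and Selp_low paHSCs gave residual correlations of 0.199, 0.320 and 0.325, but the labels name no pairing. Libraries of different number and age reached 0.450 (Selp_high replicate 1 with yHSC replicate 2), so such values cannot establish a pairing. With the number as a replicate block, DESeq2 called 7 members instead of 1. Higher in Selp_high were Il6st, Il11ra1, Il27ra, Csf1r, Csf3r and Tnfrsf1a, and lower was Il1rl1. The same fit called 2151 genes in all, against 589 without the block, so the count of calls grew over the whole table and not for the members alone. edgeR with the block called 0 members, and 9 genes in all.

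The second comparison set Selp_high paHSCs against yHSCs. edgeR called 0 of the 37 members, beside 0.165% of the 20017 genes tested, and DESeq2 called 2 members, Il1r1 and Il12rb2, beside 2.92%. At an unadjusted edgeR p under 0.05 there were 8 members (21.6%), beside 7.59% of all genes. Libraries did not overlap for 4 members that were higher in Selp_high paHSCs, beside 8.53% of all genes, and for 5 that were lower (13.5% of members), beside 5.28%. The median log2 fold change of the members was -0.34, against -0.03 for all genes. All 6 members of the interferon and IL-10 family had an estimate below 0, with a median of -0.47 and none called.

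Il1r1, the signalling receptor of IL-1, had the log2 fold change largest in size of the 37 members between Selp_high paHSCs and yHSCs. It stood at 20.2, 23.6 and 42.3 CPM in yHSCs, 6.33, 2.50 and 5.69 CPM in Selp_low and 4.49, 7.03 and 4.24 CPM in Selp_high paHSCs. The lowest yHSC library was above every paHSC library, and the fractions overlapped each other. The log2 fold change of Selp_high paHSCs over yHSCs was -2.45 ± 0.40, at an edgeR adjusted p of 0.0993 and a DESeq2 adjusted p of 8.82e-07. DESeq2 called it in all 6 fits that left out 1 library, with estimates from -2.74 to -2.18. Il1rap, the accessory chain that Il1r1 and Il1rl1 share, gave 0.01 ± 0.33 in the same comparison. Cd34, a progenitor surface marker, separated the libraries in the same way as Il1r1, at 516 to 943 CPM in yHSCs and 21.9 to 169 CPM in paHSCs, and edgeR called it lower in Selp_high paHSCs (-3.30). The summed level of Cd48, Cd34 and Flt3 was 739 to 1540 CPM in yHSCs and 77.2 to 386 CPM in paHSCs. Cd48 alone did not share this pattern. It stood at 15.65 to 34.2 CPM in yHSCs, 174, 309 and 22.7 CPM in Selp_low and 11.6 to 38.6 CPM in Selp_high paHSCs. Whether a different make-up of the sorted cells has a part in the Il1r1 level was not tested.

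Il12rb2, the signal-transducing chain of the IL-12 receptor, stood at 7.49, 13.4 and 11.2 CPM in yHSCs, 2.33, 4.88 and 1.87 CPM in Selp_low and 2.40, 3.13 and 1.69 CPM in Selp_high paHSCs. All yHSC libraries were again above all paHSC libraries, as for Cd34. The log2 fold change of Selp_high paHSCs over yHSCs was -2.18 ± 0.44, at an edgeR adjusted p of 0.163 and a DESeq2 adjusted p of 0.000173, and DESeq2 called it in all 6 fits that left out 1 library. The gene overlaps Serbp1 on the opposite strand, which held 298 to 330 CPM in yHSCs and 323 to 447 CPM in paHSCs. Its partner Il12rb1 gave 0.16 ± 0.45.

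Other members without overlap were not called. Il18rap, the accessory chain of the IL-18 receptor, stood at 6.09, 3.57 and 20.8 CPM in Selp_high paHSCs and at 21.3, 26.7 and 34.2 CPM in yHSCs (log2 fold change -1.47 ± 0.63, edgeR adjusted p = 0.659). In Selp_low paHSCs it held 5.25, 10.3 and 48.0 CPM. Its level was highest in Selp_low replicate 3, the library with the most neutrophil markers. Within Selp_high paHSCs the library with the most of these markers also held the highest level, but within yHSCs it held the lowest. Il13ra1, the chain that completes the type II IL-4 receptor, stood at 5.11, 6.11 and 5.38 CPM in Selp_high paHSCs and at 3.08, 1.30 and 3.44 CPM in yHSCs (1.07 ± 0.51, edgeR adjusted p = 0.740). In Selp_low paHSCs it held 2.00, 64.1 and 1.09 CPM, so that 1 library set the mean of that group.

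**Figure D2:**
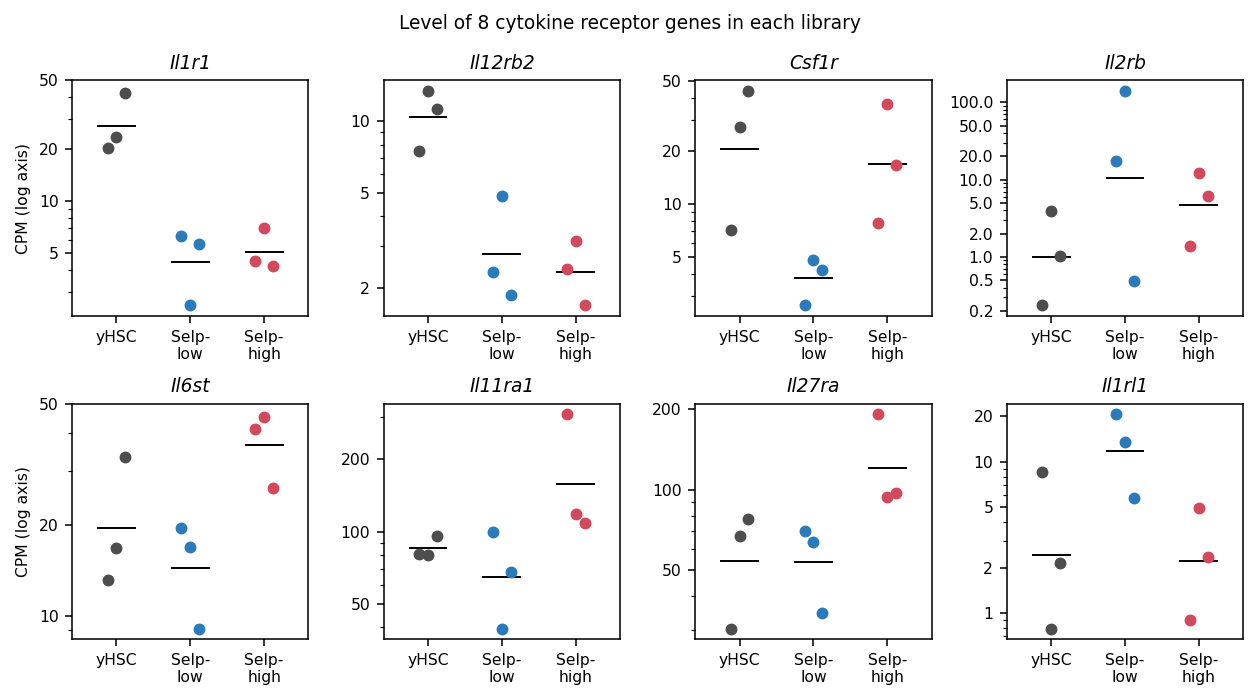
CPM (log axis) of 8 cytokine receptor genes in each library; points are libraries, and bars are the geometric means of the 3 libraries of a group. Il1r1 and Il12rb2 are above every paHSC library in all 3 yHSC libraries, and Il2rb spans 0.487 to 140 CPM within Selp_low paHSCs.

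The third comparison set Selp_low paHSCs against yHSCs and shares its yHSC libraries with the second. edgeR called 0 of the 37 members, beside 0% of the 20437 genes tested, and DESeq2 called 4 (10.8%), beside 2.22%. At an unadjusted edgeR p under 0.05 there were 5 members (13.5%), beside 11.3% of all genes. For 0 members every Selp_low library was above every yHSC library, beside 9.59% of all genes, and 3 were lower (8.11%), beside 6.76%. These 3 were Il1r1, Il12rb2 and Csf1r. The median log2 fold change of the members was -0.17, against 0.08 for all genes.

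Il1r1 gave a log2 fold change of -2.51 ± 0.46 in Selp_low paHSCs over yHSCs, beside -2.45 in Selp_high paHSCs. Its edgeR adjusted p was 0.332 and its DESeq2 adjusted p 0.000693; DESeq2 lost the call in 1 of 6 fits, the one without yHSC replicate 3. Il12rb2 gave -1.76 ± 0.50 (edgeR adjusted p = 0.335; DESeq2 adjusted p = 0.0484), and DESeq2 lost that call without yHSC replicate 2 or 3 or Selp_low replicate 1. Csf1r gave -2.67 ± 0.65 (edgeR adjusted p = 0.332; DESeq2 adjusted p = 0.00673) and lost it without yHSC replicate 2 or 3.

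Il2rb, the signalling chain shared by IL-2 and IL-15, was the only member that DESeq2 called higher in Selp_low paHSCs. It stood at 17.4, 140 and 0.487 CPM in Selp_low paHSCs, 0.237, 3.89 and 1.04 CPM in yHSCs and 1.39, 12.1 and 6.13 CPM in Selp_high paHSCs. The groups overlapped, since Selp_low replicate 3 was below 2 of the 3 yHSC libraries. The log2 fold change over yHSCs was 5.02 ± 1.90 (edgeR adjusted p = 0.387; DESeq2 adjusted p = 0.0166), and among the 6 fits that left out 1 library DESeq2 called it only without Selp_low replicate 3.

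Il2rb belonged to a group of chains whose level followed the libraries more than the groups. Il2ra, the high-affinity IL-2 receptor chain, held 15.0, 15.6 and 0.187 CPM in Selp_low replicates 1 to 3. Il5ra, the IL-5 receptor chain, held 14.4, 15.9 and 0.150 CPM, and Il10ra, the ligand-binding IL-10 receptor chain, held 48.2, 70.3 and 3.18 CPM. Il2rg, the common gamma chain, held 471, 420 and 46.8 CPM in Selp_low, 136, 184 and 173 CPM in yHSCs and 294, 75.9 and 57.8 CPM in Selp_high paHSCs. Selp_low replicates 1 and 2, which carried the most B cell markers and the most Cd48, were high in all of these, and replicate 3 was low. Selp_high replicate 2 carried 20914 CPM of B cell markers, close to the 21510 CPM of Selp_low replicate 1. It held 1.97 CPM of Il2ra, 4.81 CPM of Il5ra, 19.1 CPM of Il10ra and 75.9 CPM of Il2rg. For Il2rb it held 12.1 CPM, beside 17.4 CPM in Selp_low replicate 1. T and NK cell markers summed to 677, 1487 and 644 CPM in Selp_low replicates 1 to 3 and to between 102 and 182 CPM in the other 6 libraries. Eosinophil markers summed to 46.4, 756 and 117 CPM in Selp_low, 6.19, 716 and 1429 CPM in Selp_high paHSCs and 40.5, 78.3 and 14.5 CPM in yHSCs. Il5ra held 1.19, 4.81 and 6.15 CPM in Selp_high paHSCs, in the order of the eosinophil markers. That order did not hold in Selp_low paHSCs or in yHSCs. Whether these markers have a part in the receptor levels was not tested.

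Chains that are abundant on myeloid cells went the opposite way within Selp_low paHSCs. Csf3r, the G-CSF receptor, held 42.9, 9.89 and 261 CPM in Selp_low, 138, 231 and 278 CPM in yHSCs and 161, 57.2 and 257 CPM in Selp_high paHSCs. Csf2ra, the GM-CSF receptor alpha chain, held 31.4, 28.5 and 260 CPM in Selp_low, 87.0, 139 and 138 CPM in yHSCs and 104, 54.7 and 167 CPM in Selp_high paHSCs. Tnfrsf1a, the main tumor necrosis factor receptor, held 36.2, 21.3 and 138 CPM in Selp_low, 50.6, 130 and 160 CPM in yHSCs and 107, 95.4 and 132 CPM in Selp_high paHSCs. For each of them Selp_low replicates 1 and 2 were the 2 lowest of the 9 libraries, and replicate 3, with the most neutrophil markers, was among the 3 highest. Within Selp_high paHSCs, replicate 3 had the most neutrophil markers (42621 CPM) and the highest level of each gene. Within yHSCs, replicate 1 had the most (64968 CPM) but the lowest level of each gene. Whether neutrophil RNA has a part in these levels was not tested.

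Without yHSC replicate 1 and Selp_low replicate 3, the libraries with the most neutrophil markers, edgeR called 11 of the 37 members between Selp_low paHSCs and yHSCs. It called 1450 genes in all, where the main fit had tested 20437. Il2ra, Il2rg, Il5ra and Il1rl1 were higher in the remaining Selp_low libraries. Csf1r, Csf2ra, Csf2rb, Csf2rb2, Il17ra, Tnfrsf1a and Il1r1 were lower. This fit compares 2 libraries with 2 and was chosen after the data were seen. Csf2rb and Csf2rb2 are neighbouring near-identical copies, and reads could be split between them.

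**Figure D3:**
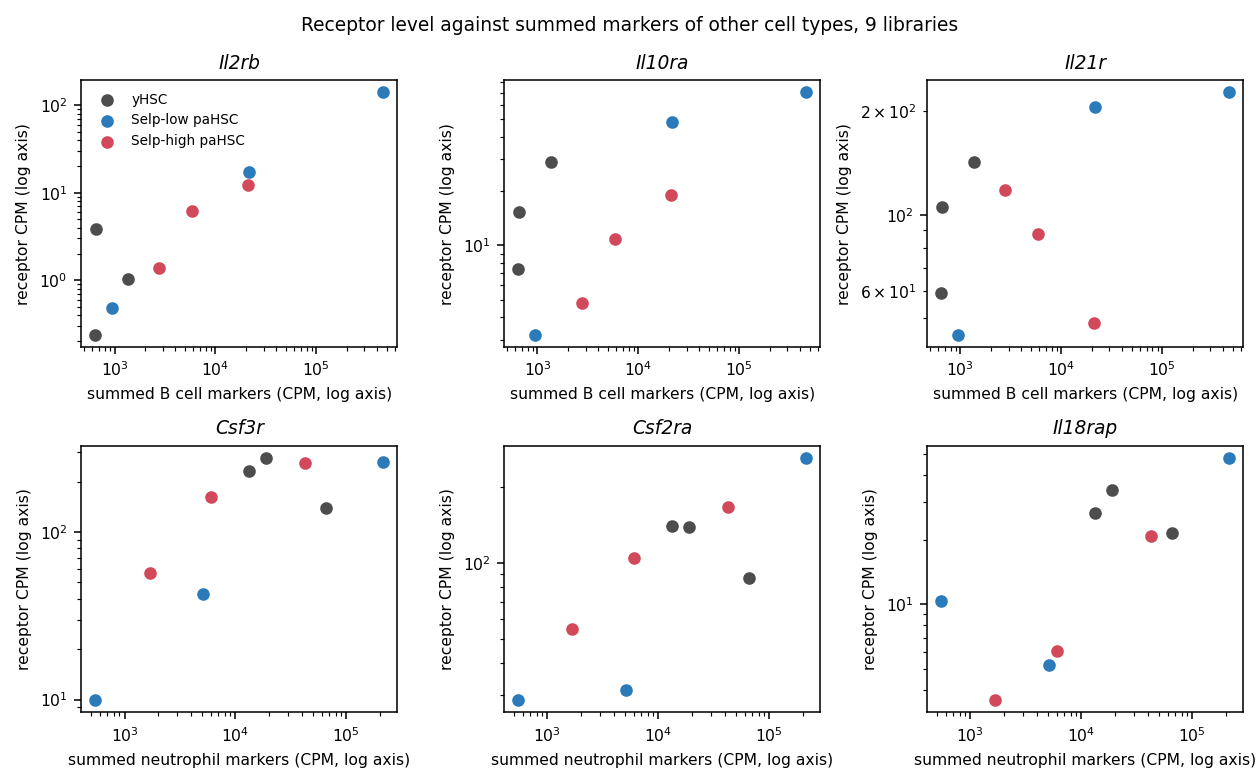
CPM of 6 cytokine receptor genes against the summed CPM of 10 B cell markers (upper row) or 10 neutrophil markers (lower row), both on log axes; each point is 1 library, coloured by group. Selp_low replicate 2 is the rightmost point of the upper row, at 456813 CPM, and Selp_low replicate 3 that of the lower row, at 213183 CPM.

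Interferon receptor chains differed by 2.51 to 3.25 times between the highest and the lowest library. Ifngr1, the ligand-binding chain for interferon gamma, held 179, 214 and 237 CPM in yHSCs, 181, 306 and 241 CPM in Selp_low and 242, 116 and 129 CPM in Selp_high paHSCs. Its estimate for Selp_high over Selp_low paHSCs was -0.59 ± 0.37 (edgeR adjusted p = 0.558). Ifngr2 was lower in Selp_high than in Selp_low paHSCs without overlap (-0.79 ± 0.32, edgeR adjusted p = 0.384), and Ifnar1 and Ifnar2, the type I interferon receptor chains, gave 0.03 ± 0.37 and -0.04 ± 0.23. Epor, the erythropoietin receptor, was above yHSCs in every Selp_high library (0.82 ± 0.34, edgeR adjusted p = 0.648), and Il17ra, the shared IL-17 receptor chain, gave -1.58 ± 0.49 in the same comparison (edgeR adjusted p = 0.411) with overlap.

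The remaining members were not called by either tool in these comparisons. Tnfrsf1b, the second tumor necrosis factor receptor, and Il12rb1 were higher in Selp_high than in Selp_low paHSCs without overlap, with log2 fold changes of 0.72 ± 0.28 and 0.89 ± 0.42, and edgeR adjusted p-values of 0.373 and 0.450. Il10rb, the chain shared by IL-10 and type III interferons, was lower in Selp_high paHSCs than in yHSCs without overlap (-0.42 ± 0.23, edgeR adjusted p = 0.824). Il4ra and Il21r, partners of the common gamma chain for IL-4 and IL-21, gave -0.94 ± 0.48 and -0.28 ± 0.41 in the same comparison. Il15ra, which presents IL-15, gave 0.54 ± 0.35. The IL-3 receptor chain Il3ra gave 0.18 ± 0.49 and the IL-6 receptor chain Il6ra gave -0.41 ± 0.62. None of these 5 separated the groups in any comparison. Csf2rb and Csf2rb2, the common beta chain of the IL-3, IL-5 and GM-CSF receptors and its IL-3 specific copy, gave -1.42 ± 0.48 and -0.80 ± 0.77 for Selp_high paHSCs over yHSCs, and Lifr and Lepr gave -0.06 ± 1.00 and -0.38 ± 1.06.

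By family, the estimates for Selp_low paHSCs over yHSCs had a median of 1.00 in the common gamma chain and IL-4/IL-13 family (5 of 7 above 0), -0.26 in the common beta chain family (1 of 5), -0.41 in the gp130 and IL-12 type family (2 of 9) and 0.16 in the IL-1 and IL-18 family (3 of 5). It was 0.27 in the interferon and IL-10 family (4 of 6) and -0.77 among the tumor necrosis factor, IL-17, CSF-1 and erythropoietin receptors (1 of 5). For Selp_high over Selp_low paHSCs the common gamma chain family had a median of -1.15 with 1 of 7 above 0. For 4 of its 7 members (Il2ra, Il2rb, Il2rg and Il21r), Selp_low replicates 1 and 2 were the 2 highest of the 9 libraries.

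**Figure D4:**
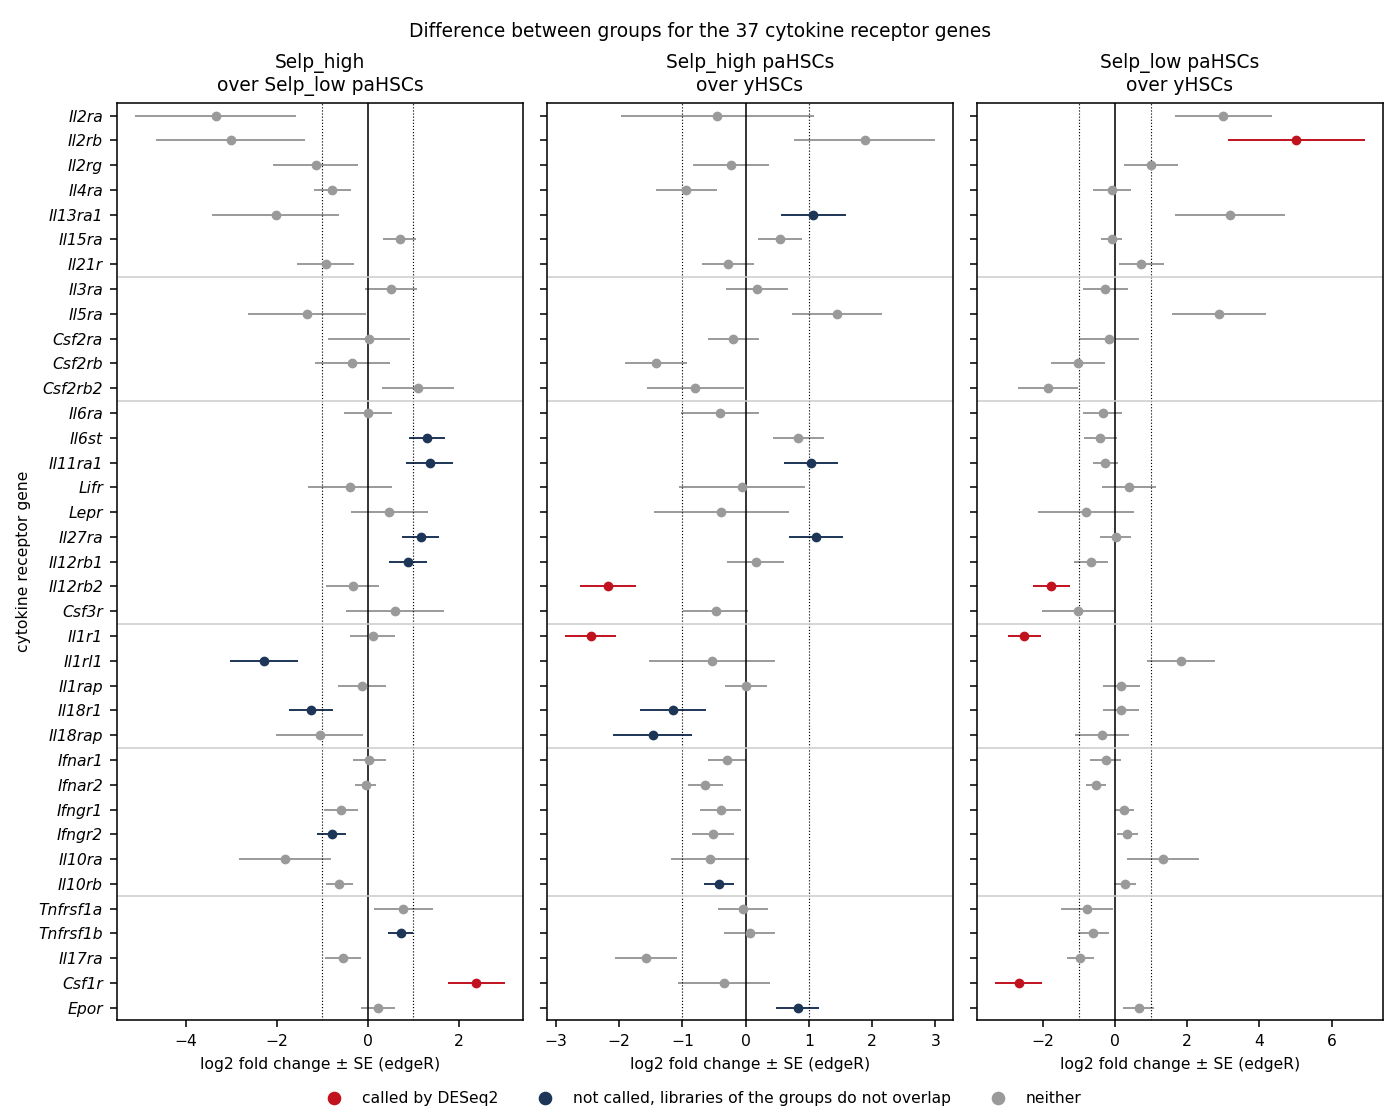
Log2 fold change of the 37 members in the 3 comparisons, by edgeR, with bars of 1 SE and dotted lines at -1 and 1. Red points are the members DESeq2 called (1, 2 and 4), dark blue points are members not called whose libraries did not overlap, and grey points are the rest.

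Other genes of the same pathways, were counted from lists written for this purpose. Of 23 tested receptors that are no members, DESeq2 called 2 between the paHSC fractions (8.70%, beside 2.33% of all genes), among them Il9r, lower in Selp_high (-5.14 ± 1.54, DESeq2 adjusted p = 0.00181). Flt3, the receptor of a lymphoid progenitor growth factor, was lower in Selp_high paHSCs than in yHSCs by both tools (-5.87 ± 0.47, edgeR adjusted p = 0.0159), and Il17rc and Ghr were higher by DESeq2, so that DESeq2 called 13.0% of this list, beside 2.92% of all genes. Against yHSCs, Selp_low paHSCs had Il9r higher and Flt3 lower by DESeq2 (9.09%, beside 2.22%). Of the cytokine ligands, DESeq2 called 1 of 22 between the fractions (4.55%; Ifng, lower in Selp_high), 2 of 21 for Selp_high over yHSCs (9.52%; Lif and Ebi3, both lower) and 2 of 23 for Selp_low over yHSCs (8.70%; Lta higher, Il15 lower), beside the same shares of all genes. Among 29 receptor-proximal signal transducers DESeq2 called Jak3 alone, higher in Selp_high than in Selp_low paHSCs (1.38 ± 0.25, DESeq2 adjusted p = 0.0495). That was 3.45% of the list, beside 2.33% of all genes. Among 21 early target genes DESeq2 called Bcl2l1 alone, higher in Selp_high paHSCs than in yHSCs (1.30 ± 0.32, DESeq2 adjusted p = 0.0254). That was 4.76% of the list, beside 2.92% of all genes. Among the decoys and soluble inhibitors both tools called 0 in every comparison, with 0, 1 and 0 genes at an unadjusted edgeR p under 0.05.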

How the data were processed

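RNA was measured in 9 libraries of sorted mouse SLAM HSCs. The authors made cDNA from low-input RNA, trimmed reads with fastp, and aligned and counted them; the submitters' processing notes name HISAT2 2.2.1, featureCounts 2.0.6 and build mm39. The deposited values are raw counts per gene, with a gene length. No annotation release, strand setting or rule for multi-mapping reads was found in those sources. There were 0 unused columns of per-sample values. Depth is given above; amplification limits precision beyond counting error.

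Each pair of groups was fitted alone in edgeR 4.0.16 (TMM, filterByExpr, quasi-likelihood test with the legacy setting, Benjamini-Hochberg over all genes tested), with DESeq2 1.42.0 and limma 3.58.1 as alternatives, in R 4.3.3. FPKM is CPM per kilobase of the deposited length. With 3 against 3 libraries, an exact permutation test cannot go below a 2-sided p of 0.10. The members and lists were chosen with earlier results of these data known. All members are named; values per library are given for members that a tool called, members without overlap and a log2 fold change of at least 1, and the 5 highest by FPKM. From other lists at most the 3 largest changes per comparison were to be named; Ghr, Ebi3 and Il15 were added after their values were seen. Il2ra, Il5ra and Il10ra values, and marker genes, were also chosen after their values were seen. Some items are not reported here. Steps were tested on simulated data. Python 3.11.15 and matplotlib 3.10.9 made the plots.

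Equal replicate numbers were read as a possible pairing where every residual correlation was above 0.1. This held for the paHSC fractions and not for either comparison with yHSCs. Alternatives covered scaling, filters, tools, dispersion, 1 fit of all 9 libraries, the replicate block and each library left out; leaving out the libraries with the most neutrophil markers, and DESeq2 with the replicate block, were added after the data were seen.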

Additional observations from a re-analysis of the deposited data

How the results depend on the processing

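The counts of called members depended on the tool. DESeq2 called 1, 2 and 4 members (Selp_high over Selp_low paHSCs, Selp_high paHSCs over yHSCs, Selp_low paHSCs over yHSCs) where edgeR called 0. limma with voom quality weights called 2 for Selp_high paHSCs over yHSCs and 1 for Selp_low paHSCs over yHSCs, and edgeR without a filter on low counts called 2 in each of these. Leaving out both libraries with the most neutrophil markers gave 11 for Selp_low paHSCs over yHSCs. With the replicate block, DESeq2 called 7, 6 and 5 of the 37 members, and edgeR called 0 in every comparison. DESeq2 then called 2151, 641 and 417 genes in all, where the main edgeR fits tested 20370, 20017 and 20437. The median log2 fold change of the members moved to 0.086 (voom) and 0.063 (replicate block) between the paHSC fractions, and to -0.28 (upper-quartile factors) and -0.58 (voom) for Selp_high paHSCs over yHSCs. Scaling by library totals alone gave 6 members without overlap for Selp_low paHSCs over yHSCs. Across the fits without 1 library, edgeR called 0, 0 and 0 to 1 members in the same order of comparisons. DESeq2 called 0 to 7, 2 to 6 and 0 to 15 members (0% to 18.9%, 5.41% to 16.2% and 0% to 40.5%). In all it called 95 to 2400, 358 to 836 and 135 to 2510 genes. That was 0.466% to 11.8%, 1.79% to 4.18% and 0.661% to 12.3% of the genes tested in the main edgeR fits. Members without overlap then numbered 10 to 25, 10 to 18 and 3 to 19 (27.0% to 67.6%, 27.0% to 48.6% and 8.11% to 51.4%). The shares of all genes tested were 24.9% to 37.9%, 18.6% to 30.2% and 19.9% to 48.0%, since fewer libraries must be kept apart. The medians ranged from -0.38 to 0.17, -0.42 to -0.14 and -0.36 to 0.046. The highest counts came without Selp_low replicate 3 in both comparisons of Selp_low paHSCs and without yHSC replicate 1 in the other. Of 401 alternative values, nearly all of single members, 360 kept the main reading. Among the rest, 23 newly passed the threshold, 15 no longer passed it and none reversed. The values include counts of members whose mean CPM moved by 1 SD under another scaling. Of these counts 3 moved, with library totals alone, and the others are among the 360. The cause of these shifts was not tested. With 3 libraries per group and such spread within Selp_low paHSCs, small differences were not detectable.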
